A study of Arabidopsis with 12 samples.

Results

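The 6 genes described here are the FLOWERING PROMOTING FACTOR 1 (FPF1) family, with the members FPF1, FLP1 and FLP2, the florigen genes FT and TSF, and SOC1, a floral integrator gene that acts after them. They were taken by locus from the 32833 genes of a table of transcript levels in Arabidopsis thaliana seedlings, and all 6 were found. FLP1 was chosen because its transcript was among those that rose most in shade, so its shade values are given as a description with no test. The other 5 genes came with it as relatives or as genes of the same pathway, although earlier results of these data were known when the set was made.

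The study compared the wild type Col-0 with bzip59, a T-DNA insertion mutant (SALK_024459) of the transcription factor gene bZIP59. Seedlings of both genotypes were 7 days old and had grown in continuous white light. Shade groups then received 2 h of light with a red to far-red ratio of 0.65, and white-light groups did not. RNA came from whole seedlings, and each of the 4 groups holds 3 libraries, 12 in all. The labels do not say whether these were separately grown batches of seedlings, so p-values measure only the spread between these samples.

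FT protein is made in companion cells of the leaf phloem, travels to the shoot apex and triggers flowering there together with the bZIP protein FD. TSF is the closest relative of FT and has an overlapping role. SOC1 is a MADS-box gene that integrates florigen signals with those of age and gibberellin at the shoot apex. FPF1 and its relatives are small plant proteins that speed up flowering when overproduced. FLP1 is known to be expressed in the cells that make FT, and it promotes flowering and stem growth. Light that is poor in red relative to far-red acts through phytochrome B and is known to hasten flowering in Arabidopsis.

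Levels are given in TPM, a share of all transcripts that accounts for transcript length, and transcripts were summed per gene. The number of reads behind a value is not known from TPM. A difference is called where its limma p, adjusted over all tested genes, was under 0.05, and intervals are 95% confidence intervals of differences in log2(TPM + 1). The libraries held 18950 to 19689 genes at 1 TPM or more. The transcript of bZIP59 measured 17.5 to 26.3 TPM in Col-0 and 3.12 to 8.32 TPM in bzip59, without overlap. All 6 markers of phloem companion cells were above 0 in every library, with SUC2, their sucrose carrier, at 15 to 37.1 TPM. The meristem markers STM, CLV1 and KNAT1 passed a mean of 1 TPM, while WUS, which marks the organizing centre of the shoot apex, was at 0 in 10 of the 12 libraries. Green-tissue markers summed to 25270 to 34371 TPM and root markers to 1544 to 2899 TPM. Because whole seedlings were used, fewer cells of a type and less RNA per cell cannot be told apart. Some libraries stood apart. The deviation of genes from their group mean had a Spearman correlation with gene length of 0.44, -0.57 and 0.34 in bzip59 white light 1, 2 and 3, and of -0.27 to 0.22 in the other 9 libraries. A set of 6 dehydration genes, chosen after the data were seen, summed to 491 TPM in Col-0 shade 1 and to 489 TPM in bzip59 shade 2, against 84.3 to 217 TPM in the other 10 libraries. These 2 libraries and bzip59 white light 2 are the 3 that stand apart. Seed storage transcripts summed to 35.4 to 242 TPM in bzip59 white light and 1.41 to 89 TPM in bzip59 shade, against 1.07 to 3.13 TPM in Col-0. Their part in the results below was not tested.

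FLP1 (AT4G31380) was nearly silent in white light and abundant after 2 h of shade, in both genotypes. Its level was 0, 0.81 and 0.98 TPM in white-light Col-0 libraries and 84.9, 90.6 and 93.1 TPM in Col-0 shade. In bzip59 it was 0.55, 0.27 and 0 TPM in white light and 97.1, 103 and 100.4 TPM in shade. No shade library came near a white-light library. The mean went from 0.6 ± 0.52 TPM (SD, n = 3) to 89.5 ± 4.19 TPM in Col-0 and from 0.27 ± 0.28 to 100.2 ± 2.92 TPM in bzip59. On the log2(TPM + 1) scale, which understates changes of low values, these rises are 5.89 in Col-0 and 6.33 in bzip59. They ranked 4th and 1st among the 19693 genes whose mean over all libraries reached 1 TPM, which are the tested genes throughout. In terms of level, FLP1 stood above 37% of all genes in Col-0 white light and above 94.9% in Col-0 shade.

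**Figure D1:**
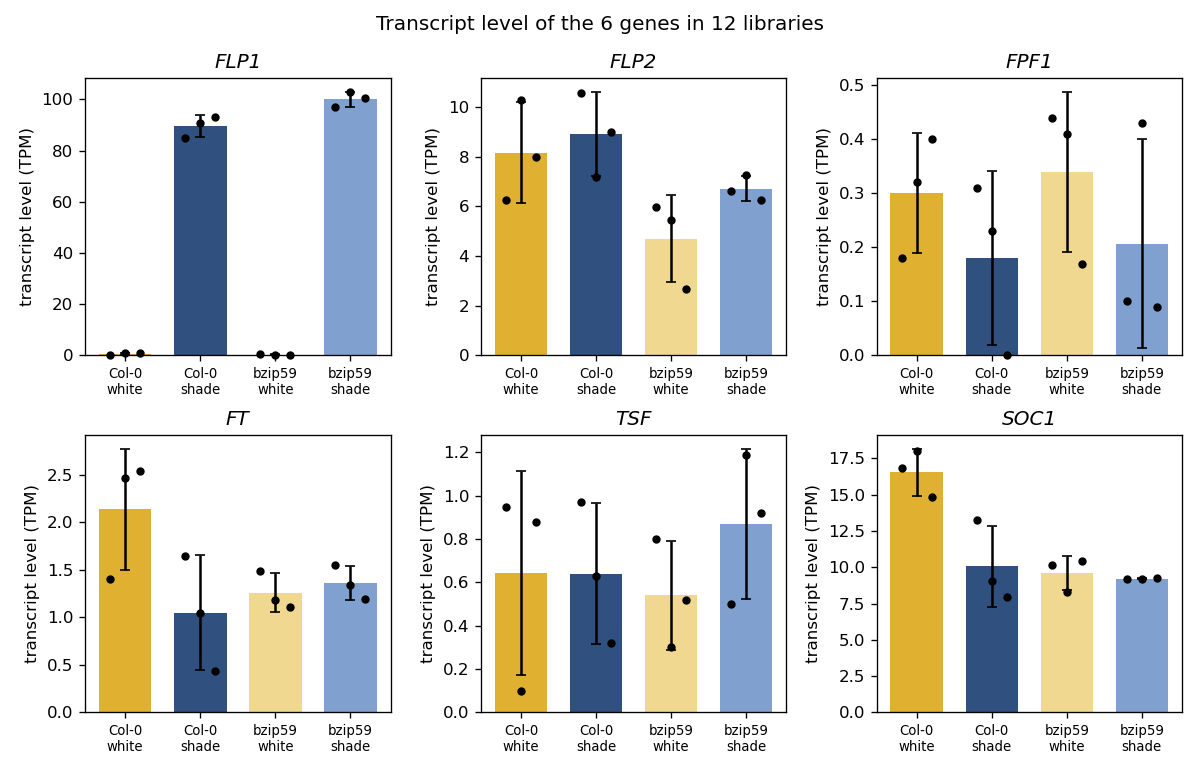
Transcript level (TPM) of the 6 genes, with a separate vertical axis for each. Points are libraries, bars are means of 3 libraries and error bars are SD. FLP1 is at 0 to 0.98 TPM in all white-light libraries and at 84.9 to 103 TPM in all shade libraries, and SOC1 stands highest in Col-0 white light.

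Between genotypes in shade, no FLP1 difference was called. In shade the 3 bzip59 libraries were all above the 3 Col-0 libraries, and the bzip59 mean was 112% of that in Col-0. Of all tested genes 4.57% were likewise higher in every bzip59 library. The difference of 0.16 on the log2 scale (95% confidence interval -0.35 to 0.67) did not pass the test (limma adjusted p = 1). FLP1 passed the filter only through its shade libraries, and in white light every value was below 1 TPM and 2 of 6 were 0. The white-light difference of -0.29 (interval -0.80 to 0.22) is therefore a description with no test. It ranged from -0.60 to -0.10 when each library was left out. The shade rise in bzip59 less that in Col-0 was 0.45 (interval -0.27 to 1.17) and ranged from 0.26 to 0.76. It is built from the same white-light values and from the rises for which FLP1 was chosen, so it too is a description. Within the shade groups FLP1 varied little, with an SD of 0.07 (Col-0) and 0.04 (bzip59) on the log2 scale. Of all tested genes 11.8% and 8.15% had a smaller SD in those groups. These shares take no account of level, and FLP1 was above 94.9% of all genes in Col-0 shade. In white light 92.2% (Col-0) and 65% (bzip59) of tested genes had a smaller SD. The libraries with high dehydration transcripts gave 84.9 TPM in Col-0, the lowest of its group, and 103 TPM in bzip59, the highest of its group.

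FLP2 (AT5G10625), the close relative of FLP1, was present in all libraries and showed no called response to shade. Its level was 6.25, 10.3 and 7.99 TPM in white-light Col-0 libraries and 10.6, 7.17 and 9.01 TPM in Col-0 shade. In bzip59 it was 5.97, 5.45 and 2.69 TPM in white light and 6.61, 7.26 and 6.26 TPM in shade. The Col-0 groups overlap, while every bzip59 shade library was above every bzip59 white-light library, as was the case for 21.5% of tested genes. The shade difference was 0.12 (interval -0.41 to 0.65, limma adjusted p = 0.827) in Col-0 and 0.49 (interval -0.04 to 1.02, limma adjusted p = 0.223) in bzip59. The mean of both was 0.30 (interval -0.07 to 0.68, limma adjusted p = 0.243). All 3 bzip59 white-light libraries were below Col-0 white light, as were 15.7% of tested genes, and the median difference of all tested genes was -0.16. The FLP2 difference of -0.72 did not pass the test (limma adjusted p = 0.251) and was -0.57 with trimmed mean of M values (TMM) factors. The bzip59 shade difference and this genotype difference both lean on white light 3, at 2.69 TPM. Without it the shade difference was 0.20 (limma adjusted p = 0.583), the mean of both genotypes 0.16 (0.474) and the white-light genotype difference -0.43 (0.406). In shade it was -0.35 (limma adjusted p = 1). The shade effects on FLP2 in the genotypes differed by 0.36 (limma adjusted p = 0.716). In order of mean level, bzip59 white light was lowest, followed by bzip59 shade, Col-0 white light and Col-0 shade, and the last 3 overlap from each to the next.

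FPF1 (AT5G24860), which gave the family its name and is known from the shoot apex after floral induction, was at the edge of detection. Its values lay between 0 and 0.44 TPM in the 12 libraries, with a single 0 in Col-0 shade. The group means ran from 0.18 ± 0.16 TPM in Col-0 shade to 0.34 ± 0.15 TPM in bzip59 white light (SD, n = 3), and each group overlaps the next. With a mean of 0.26 TPM it fell under the filter of 1 TPM. An exact permutation test within genotypes, two-sided over 12 libraries, gave p = 0.15 for shade, where the smallest possible p is 0.005. The gene has 3 transcripts in the table, of which transcript 3 held most of the signal and transcript 2 was at 0 in every library.

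Taking the family as a sum, shade changed which gene supplied most of the transcript. The 3 genes together measured 6.43, 11.4 and 9.37 TPM in Col-0 white light, of which FLP1 made up 0 to 10.5%. In Col-0 shade they measured 95.8, 98 and 102 TPM, and FLP1 made up 88.6 to 92.5%. In bzip59 the sum was 2.86 to 6.96 TPM in white light and 104 to 111 TPM in shade, with FLP1 at 93 to 94.1% in shade. FLP2 was thus the most abundant member in all 6 white-light libraries and FLP1 in all 6 shade libraries. These shares rest on the FLP1 rise for which the gene was chosen.

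**Figure D2:**
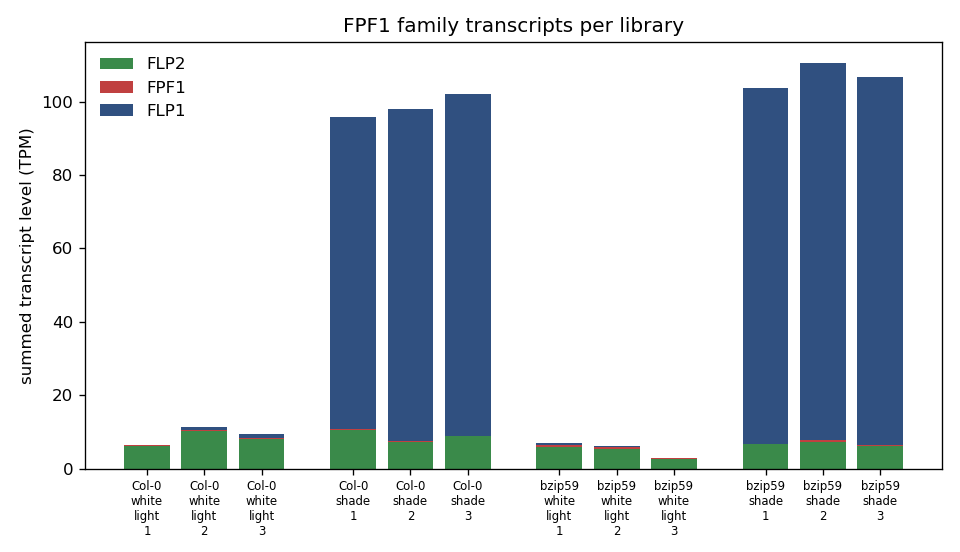
Summed transcript level (TPM) of the FPF1 family in each of the 12 libraries, stacked by gene. White-light bars reach at most 11.4 TPM and consist mostly of FLP2, and shade bars reach 95.8 to 111 TPM and consist mostly of FLP1.

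FT (AT1G65480) stayed low, and its response to shade did not pass the test in either genotype. Its level was 1.4, 2.47 and 2.54 TPM in white-light Col-0 libraries and 1.65, 1.05 and 0.44 TPM in Col-0 shade. In bzip59 it was 1.49, 1.18 and 1.11 TPM in white light and 1.55, 1.34 and 1.19 TPM in shade. All neighbouring groups overlap, although the highest values were from Col-0 white light. The shade difference in Col-0 was -0.64 (interval -1.17 to -0.10, unadjusted p = 0.0233, limma adjusted p = 0.138). In bzip59 it was 0.06 (interval -0.47 to 0.60, limma adjusted p = 0.893), and the mean of both was -0.29 (interval -0.67 to 0.09, limma adjusted p = 0.277). The Col-0 value rests in part on shade 3, the lowest FT level. Without it the difference was -0.41 (limma adjusted p = 0.448) and the mean of both -0.17 (0.522). With a pseudocount of 0.1 they were -1.08 (0.149) and -0.49 (0.287).

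Between genotypes FT differed by -0.45 in white light (interval -0.99 to 0.08, limma adjusted p = 0.373) and by 0.25 in shade (interval -0.29 to 0.78, limma adjusted p = 1). With TMM factors the white-light difference was -0.35, while the median of all tested genes moved from -0.16 to -0.01. The interaction was 0.70 (interval -0.05 to 1.46, limma adjusted p = 0.618). The table splits FT into 2 transcripts. Transcript 1 held all of the FT signal in Col-0 white light (2.14 ± 0.64 TPM, SD, n = 3), where transcript 2 was at 0. In bzip59 shade transcript 1 was above 0 in 1 library and transcript 2 in 2 libraries. At these levels reads shared by the transcripts may be assigned to either, so the sum is the safer value.

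TSF (AT4G20370), like FT a gene for a mobile flowering signal, was lower than FT in all 12 libraries, by 0.12 to 2.37 TPM. It measured 0.95, 0.1 and 0.88 TPM in white-light Col-0 libraries and 0.97, 0.63 and 0.32 TPM in Col-0 shade. In bzip59 it measured 0.8, 0.3 and 0.52 TPM in white light and 0.5, 1.19 and 0.92 TPM in shade. The 4 groups overlap, and the mean of 0.67 TPM over all libraries is under the filter. The exact permutation test within genotypes gave p = 0.4 for shade. Single contrasts gave exact permutation p from 0.3 to 0.8 for TSF and from 0.3 to 1 for FPF1, and 3 against 3 libraries cannot go below 0.1. None of the 10 tests of these genes passed (the lowest adjusted p by permutation was 0.8). Summed, FT and TSF came to 2.78 ± 0.57 TPM in Col-0 white light, 1.69 ± 0.93 TPM in Col-0 shade, 1.8 ± 0.43 TPM in bzip59 white light and 2.23 ± 0.26 TPM in bzip59 shade (SD, n = 3).

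SOC1 (AT2G45660, listed in RefSeq as AGL20) fell in shade in Col-0. Its level was 16.8, 18 and 14.8 TPM in white-light Col-0 libraries and 13.2, 9.03 and 7.96 TPM in Col-0 shade, without overlap, as 15.8% of tested genes were lower in every Col-0 shade library. The mean fell from 16.5 ± 1.62 to 10.1 ± 2.78 TPM (SD, n = 3), or to 60.8% of the white-light level. The change of -0.69 on the log2 scale (SE 0.17, interval -1.05 to -0.33) passed the test (limma adjusted p = 0.0212, and 0.00226 to 0.106 under the alternatives). It was the only call among the 3 tested members other than FLP1, in a comparison where 9.92% of all tested genes were called. Over both genotypes the mean SOC1 change was -0.37 (SE 0.12, limma adjusted p = 0.0458, and 0.00491 to 0.114 under the alternatives), where 19% of tested genes were called. The Col-0 call did not hold without white light 1 (limma adjusted p = 0.0663), white light 2 (0.0837), shade 2 (0.0851) or shade 3 (0.106) of that genotype, nor when only the Col-0 libraries entered the fit (0.106). Without the 3 libraries that stand apart the change was -0.88 (limma adjusted p = 0.00289). Col-0 shade 1, high in dehydration transcripts, had the highest SOC1 value of its group. The summed level of 5 shoot meristem markers in Col-0 was 24 to 32 TPM under white light and 28.6 to 37.8 TPM under shade, overlapping. In bzip59 it was 17.5 to 28.4 TPM and 33.1 to 37.3 TPM, without overlap. There 21.5% of tested genes were higher in every shade library. Of the 3 markers tested, 0 were called in Col-0 and 1, which rose, in bzip59, beside 9.92% and 10.2% of tested genes. Their part in the SOC1 values was not tested, and whole seedlings do not show which tissue the SOC1 transcript came from.

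In bzip59 SOC1 showed no called shade change. It measured 10.1, 8.29 and 10.4 TPM there and 9.17, 9.18 and 9.24 TPM in shade, so the groups overlap. The shade change was -0.05 (interval -0.41 to 0.31, limma adjusted p = 0.869), in a comparison where 10.2% of tested genes were called and none of the 3 tested members was. The 3 bzip59 white-light libraries lay below the 3 Col-0 white-light libraries, as was the case for 15.7% of tested genes. Their mean was 58.1% of the Col-0 level. This difference of -0.73 (SE 0.17, interval -1.09 to -0.37) had an unadjusted p of 0.000957 and failed the correction over all genes (limma adjusted p = 0.173, and 0.0903 to 0.544 under the alternatives). The median of all tested genes in that comparison was -0.16, and with trimmed mean of M values (TMM) factors, which brought that median to -0.01, the SOC1 difference was -0.57. In shade the SOC1 levels of the genotypes differed by -0.09 (interval -0.45 to 0.27, limma adjusted p = 1).

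The shade effect on SOC1 in bzip59 less that in Col-0 was 0.64 (interval 0.13 to 1.15). Its unadjusted p was 0.019, and it failed the correction (limma adjusted p = 0.586). With TMM factors it was 0.49, while the median of all genes moved from 0.15 to 0.01. This difference, the shade change in Col-0 and the genotype difference in white light all use the same 3 Col-0 white-light libraries, the only group in which SOC1 exceeded 14 TPM. From lowest to highest mean, bzip59 shade, bzip59 white light and Col-0 shade overlap each with the next, and Col-0 white light stands above them. Both SOC1 transcripts were high there, with transcript 1 at 14.6 ± 1.44 TPM against 8.3 to 9.06 TPM in the other groups. Transcript 2 was at 1.94 ± 0.36 TPM against 0.89 to 1.23 TPM.

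FLP2, FT and SOC1 were not called between genotypes or in the interaction, and FLP1 was not called between genotypes in shade. Limma called 0.0254% of genes for genotype in white light and 0.0406% in shade. It called 0 of 19693 genes for the interaction, where 1577 genes had an unadjusted p under 0.05.

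**Figure D3:**
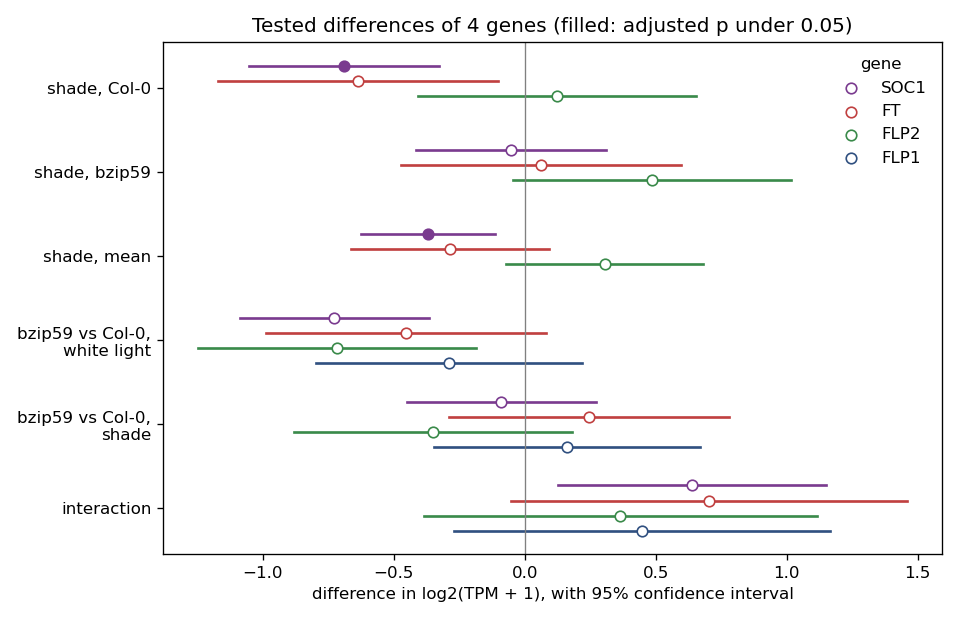
Differences in log2(TPM + 1) of the 4 tested members, with 95% confidence intervals from limma. Filled points passed an adjusted p of 0.05, and FLP1 is drawn only where it was not chosen on the contrast. SOC1 in shade, in Col-0 and as the mean of both genotypes, has the only filled points.

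Of 14 genes that repress FT, TSF or SOC1, all tested, 2 rose and 4 fell in shade in Col-0, and 2 rose and 4 fell in bzip59. Of all tested genes 3.42% rose and 6.5% fell in Col-0, and 6.49% rose and 3.7% fell in bzip59. The list was made with earlier results of these data known, so these counts and medians describe it and show no enrichment. The median change was -0.31 in Col-0 and -0.37 in bzip59, beside -0.01 and 0.11 over all tested genes. TEM1 encodes a RAV-type factor that represses FT. Its level was 22.1, 18.2 and 20.6 TPM in white-light Col-0 libraries and 55.2, 95.7 and 88.1 TPM in Col-0 shade (log2 1.88, SE 0.22, limma adjusted p = 0.000319). In bzip59 it was 15, 16.4 and 15.6 TPM in white light and 115, 66.8 and 101 TPM in shade (log2 2.48, limma adjusted p = 4.73e-05). The lowest TEM1 value of each shade group came from the library with high dehydration transcripts. Its relative TEM2 rose by log2 1.05 and 1.68 (limma adjusted p = 0.0034 and 0.000187).

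Among the repressors that fell, SMZ, an AP2-type factor that represses FT, measured 37.7, 38.1 and 31.5 TPM in white-light Col-0 libraries and 15.5, 9.9 and 11 TPM in Col-0 shade. In bzip59 it measured 36.4, 33.9 and 40.1 TPM in white light and 11.9, 16 and 9.77 TPM in shade. In Col-0 every shade library was below every white-light library, as was the case for 15.8% of tested genes. The SMZ change was log2 -1.50 in both genotypes (limma adjusted p = 0.000505 in Col-0 and 0.000528 in bzip59). Its relative SNZ changed by -1.47 and -1.18 (limma adjusted p = 0.000255 and 0.00111). TOE1 of the same AP2 group and SVP, a MADS-box repressor of FT and SOC1, completed the 4 that fell in each genotype and are named to fill that count. TOE1 went from 82.4 ± 9.58 to 36.1 ± 8.12 TPM in Col-0, and SVP from 62.8 ± 2.91 to 33.3 ± 4.18 TPM (SD, n = 3). The 6 calls were kept in both genotypes under every alternative run. FLC, the vernalization gene, showed no called change in either genotype (log2 -0.22 and -0.04), nor did MAF5, the least precise of the list (log2 -1.40 and -0.74).

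Of 15 light and photoperiod regulators of FT, all tested, 3 rose and 5 fell in Col-0, beside 3.42% and 6.5% of tested genes, and 5 rose and 2 fell in bzip59, beside 6.49% and 3.7%. The medians were 0.05 and 0.27, against -0.01 and 0.11 over all tested genes. This list, too, was made with earlier results of these data known, so its counts and medians are descriptions. CDF5, a DOF factor that represses CO and FT, rose from 2.09 ± 0.41 to 9.33 ± 1.31 TPM in Col-0 and from 0.95 ± 0.43 to 9.02 ± 2.89 TPM in bzip59 (limma adjusted p = 0.000616 and 9.28e-05). FKF1, the blue-light receptor that removes CDF proteins, measured 16.2, 16.9 and 12.8 TPM in white-light Col-0 libraries and 5.94, 5.9 and 6.17 TPM in Col-0 shade. It fell by 1.21 in Col-0 and by 1.04 in bzip59 on the log2 scale (limma adjusted p = 0.000571 and 0.00161). CIB1, a bHLH activator of FT, went from 5.46, 7.94 and 5.58 TPM to 21.2, 36.7 and 38.1 TPM in Col-0. In bzip59 it went from 3.18, 0 and 1.88 TPM to 32.9, 32.1 and 36 TPM. The CIB1 change was 2.14 (limma adjusted p = 0.00713) in Col-0, where a pseudocount of 0.1 ended the call (limma adjusted p = 0.175), and 3.92 (0.000175) in bzip59.

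CDF1, another repressor of CO and FT, fell by 0.82 in Col-0 (limma adjusted p = 0.00679, but 0.0662 with only the Col-0 libraries in the fit) and had a change of -0.05 in bzip59 (limma adjusted p = 0.859). The difference between these CDF1 effects did not pass (0.77, limma adjusted p = 0.536). The photoperiod gene CO was at 1.22 to 1.52 TPM in the 6 white-light libraries and at 1.63 to 2.84 TPM in the 6 shade libraries. It is given because it is the direct activator of FT, outside the rule for named genes in a single genotype. Its change was 0.36 (limma adjusted p = 0.227) in Col-0 and 0.54 (0.0654) in bzip59, and 0.45 as the mean of both (0.0207), a call lost without bzip59 shade 1 (0.0619). The count of 5 falls in Col-0 went down to 3 without the 3 libraries that stand apart, and it ranged from 1 to 5 over the alternatives. The count of 2 falls in bzip59 ranged from 1 to 2, and was 1 without those libraries.

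**Figure D4:**
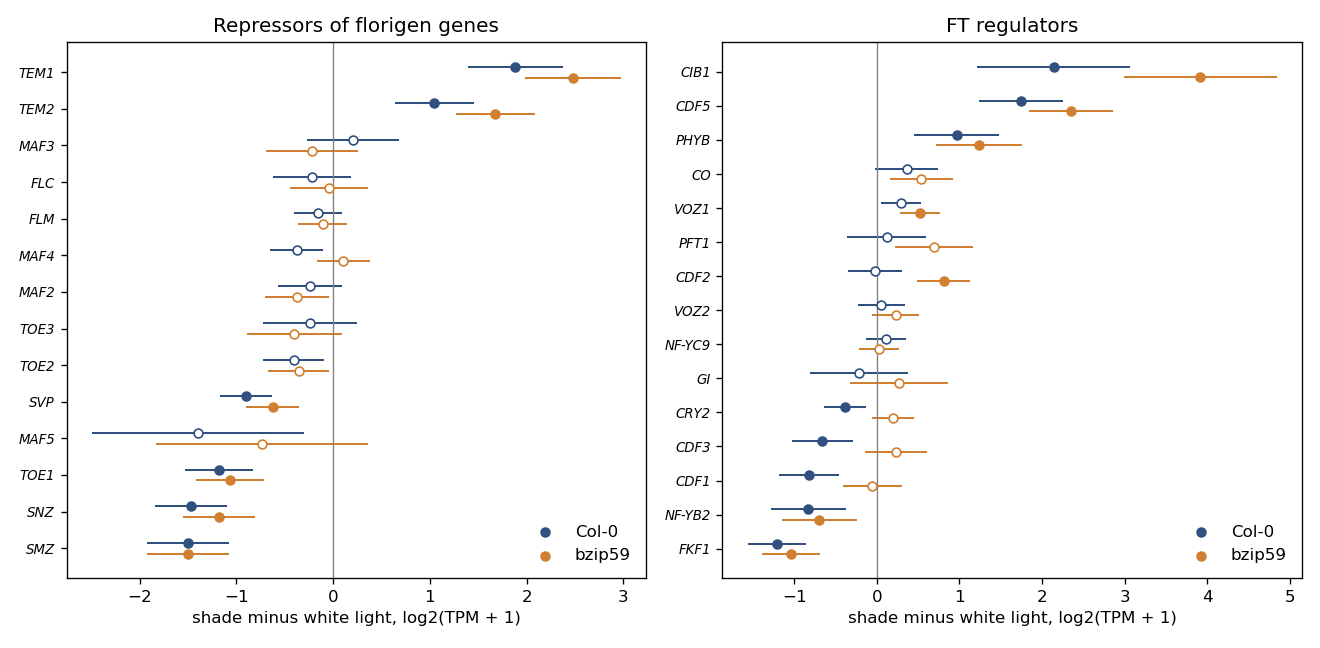
Shade minus white light on the log2(TPM + 1) scale for 14 repressors of florigen genes and 15 regulators of FT, with 95% confidence intervals from limma, in Col-0 and bzip59. Filled points passed an adjusted p of 0.05. TEM1 and TEM2 lie to the right and SVP, TOE1, SNZ and SMZ to the left in both genotypes.

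Of 15 floral integrator, floral identity and age-pathway genes, which include activators of SOC1, 7 passed the filter. The floral identity genes AP1, LFY and CAL had means of 0.03, 0.19 and 0.04 TPM. Among the 7 tested, SPL9, an age-pathway factor that activates SOC1, fell from 6.58 ± 0.93 to 2.67 ± 0.56 TPM in Col-0 and from 5.61 ± 0.31 to 1.93 ± 0.28 TPM in bzip59 (SD, n = 3, limma adjusted p = 0.00126 and 0.000714). AGL14, a MADS-box gene, rose by 0.68 in Col-0 (limma adjusted p = 0.0319, lost in 7 of 21 alternatives), and SPL3 rose by 0.76 in bzip59 (limma adjusted p = 0.00951, lost in 3 of 22). Over both genotypes SPL15, the relative of SPL9, fell by 0.62 (limma adjusted p = 0.00941). Of 8 florigen relatives, partners and transport genes 7 were tested. MFT, a relative of FT known from seeds, rose by 0.70 in Col-0 (limma adjusted p = 0.0488, lost in 15 of 21 alternatives), and no gene of that list was called in bzip59. Of 7 shade reference genes 6 rose in Col-0 and 7 in bzip59, where 3.42% and 6.49% of tested genes rose. Their list, like the other gene lists, was made with earlier results of these data known, so it is no independent check of the treatment. The homeodomain factor gene ATHB2 changed by 3.57 and 3.71 on the log2 scale. No gene of these 5 lists was called between genotypes or in the interaction.

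The sum of the 6 companion-cell markers was 109 to 132 TPM in Col-0 white light, 116 to 140 TPM in Col-0 shade, 85.9 to 137 TPM in bzip59 white light and 124 to 126 TPM in bzip59 shade. Of these 6 genes 0 were called in either shade comparison by limma, beside 9.92% of tested genes in Col-0 and 10.2% in bzip59. Their median change was 0.11 in Col-0 and 0.23 in bzip59, beside -0.01 and 0.11 over all tested genes. The ranges overlap between light conditions in Col-0. In bzip59 they overlap through white light 1 alone, at 137 TPM, while the other 2 white-light libraries were at 85.9 and 99.6 TPM. Their part in the FLP1 values was not tested.

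The genes whose profile over the 12 libraries was most like that of FLP1 were BHLH87, IAA29, GH3.3, YUC9 and IAA19, with Pearson r on log2(TPM + 1) of 0.994, 0.994, 0.994, 0.994 and 0.993. FLP1 values form a low and a high cluster that match white light and shade, so r here records chiefly the shade rise that all 6 share, and 414 of 19693 genes had r above 0.9. BHLH87 is a bHLH factor gene, IAA29 and IAA19 encode auxin-response repressors, GH3.3 conjugates auxin and YUC9 makes it. IAA29 measured 1 to 1.26 TPM in Col-0 white light and 85.3, 118 and 113 TPM in Col-0 shade. YUC9 reached only 9.08 to 11.3 TPM in the shade libraries. Within Col-0 shade IAA29, BHLH87 and IAA19 were lowest in library 1, as FLP1 was, while GH3.3 and YUC9 were highest there. Within bzip59 shade IAA29, BHLH87 and IAA19 were lowest in library 2, where FLP1 was highest. There GH3.3 was lowest in library 1, and YUC9 was lowest in libraries 2 and 3, at 9.11 TPM in each.

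**Figure D5:**
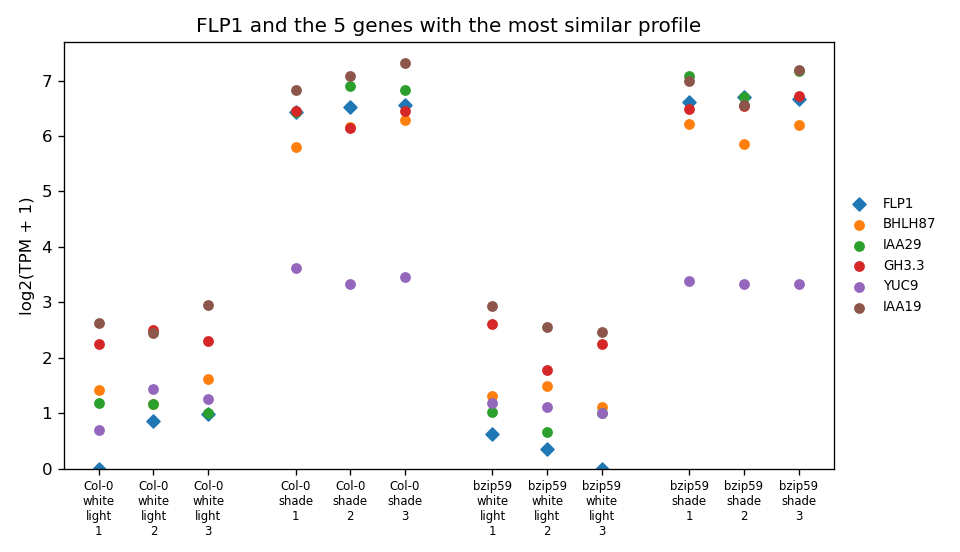
Log2(TPM + 1) in each of the 12 libraries for FLP1 (diamonds) and the 5 genes with the highest Pearson r to it (circles). All 6 genes lie low in white light and high in shade, and YUC9 rises least.

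The other members had less crowded neighbourhoods, with 9 genes above r = 0.9 for FLP2, 5 for FT and 28 for SOC1. Closest to SOC1 were TPS27 (r = 0.951), a terpene synthase gene, HIPP05 (0.944) and ASK1 (0.936), over 12 libraries. ASK1 here is AT1G10940, a protein kinase gene listed in RefSeq as SNRK2.4. TPS27 was at 108, 196 and 159 TPM in white-light Col-0 libraries and at 33.7 to 96.1 TPM in the other 9 libraries, so it too was highest in Col-0 white light. Closest to FT were ATHSD2 (r = 0.943), CYCT1-2 (0.917) and AT2G39690 (0.911). Closest to FLP2 were AT1G75060 (r = 0.942), DOF4.1 (0.939) and AT3G17160 (0.916). These values are descriptions of 12 libraries that share sources of variation such as RNA quality and composition.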

How the data were processed

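Messenger RNA was enriched with oligo(dT) beads and made into cDNA with random primers, per the labels' protocols. The authors used fastp, cutadapt, HISAT2 and DESeq2 on the build TAIR10, per the submitters' processing notes, where no version is stated. The TPM tool and strandedness are not given in the sources used here. Values are TPM as the authors deposited them, for 54013 transcripts in 12 libraries. The 4 columns of group means matched averages of the library columns to 3.33e-06 TPM and were left out. TPM keeps no read counts, so depth is unknown and no counting error can be given.

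TPM was summed to 32833 genes. Tests used limma 3.58.1 in R 4.3.3 (data.table package 1.17.8) with an intensity trend on log2(TPM + 1), for the 19693 genes whose mean reached 1 TPM, 4 group means in a single fit and Benjamini-Hochberg adjustment over all genes tested, at 0.05. FPF1 and TSF, under that filter, had exact two-sided permutation tests. Figures were drawn with matplotlib 3.10.9 and numpy 2.4.6 under Python 3.11.15. The test was checked on simulated data with independent noise for each gene and library. Those data lack the shared deviations of the libraries that stand apart, so the check does not cover them.

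The members, the 10 gene lists (83 entries, all found) and the tests were chosen with earlier results of these data known. Named are the members, the 5 genes most like FLP1 and the 3 most like each other tested member by Pearson r, and up to 3 called genes per list and shade contrast by smallest p. Any called list gene in the other contrasts would have been named as well. Symbols come from the table and from RefSeq (TAIR10.1), and 32548 genes matched a RefSeq locus. Coordinates and sequences are not printed, and a planned protein comparison was not run. Reads of overlapping or closely related genes, such as FT and TSF or FLP1 and FLP2, may be shared.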

Additional observations from a re-analysis of the deposited data

How the results depend on the processing

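The alternatives were pseudocounts of 0.1 and 0.5, no filter and a mean of at least 5 TPM, TMM factors, quantile normalization, no intensity trend, only the groups compared, a replicate block, leaving out each library, and leaving out the 3 libraries that stand apart. Fits of only the groups compared do not exist for the mean of both genotypes and the interaction, which use all 4 groups, and FT was not tested at 5 TPM. The count of called members, 1 for shade in Col-0 (SOC1), became 0 with only the groups compared and ranged from 0 to 1 when each library was left out. The count of 1 for the mean of both genotypes became 0 without the filter and without the trend, and also ranged from 0 to 1 over the libraries left out, with 0 in 9 of 12 fits. The counts for shade in bzip59, for genotype in white light and in shade and for the interaction were 0 under all alternatives run. FLP1 entered the genotype and interaction counts, although its white-light and interaction values are descriptions. For single contrasts of FPF1 and TSF the count says nothing of stability, since 3 against 3 libraries cannot go below an exact p of 0.1. The shade tests over both genotypes can go lower. Their unadjusted exact permutation p ranged from 0.05 to 0.315 for FPF1 and from 0.26 to 0.905 for TSF over the alternatives. Fewer libraries in a fit leave less power, and the cause of the other losses was not tested. With a replicate block SOC1 kept its call in Col-0 (limma adjusted p = 0.0259) and as the mean of both genotypes (0.0473), and no count of members changed. Same-numbered libraries deviated together with r over 0.1 in 3 of 18 pairs (median 0.04, range -0.15 to 0.25). These correlations cannot decide whether libraries of the same number were grown or handled together.

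Signs of uncalled differences near 0 changed as follows on the log2 scale. Over the libraries left out, FLP2 shade in Col-0 ranged from -0.036 to 0.28, SOC1 shade in bzip59 from -0.15 to 0.0046 and SOC1 genotype in shade from -0.23 to 0.11. FPF1 genotype ranged from -0.10 to 0.11 in shade and from -0.027 to 0.14 in white light. TSF genotype in white light ranged from -0.33 to 0.086 and TSF shade in Col-0 from -0.24 to 0.17. Without the 3 libraries that stand apart the values were 0.11 for SOC1 genotype in shade, -0.018 for FPF1 genotype in shade, 0.055 for TSF genotype in white light, -0.12 for TSF shade in Col-0 and -0.040 for TSF shade as the mean. FT shade in bzip59 was -0.011 with TMM factors, and TSF genotype in white light was 0.039 with a pseudocount of 0.1. Alternatives for the gene lists were added after the data were seen. The unknown depth limits FPF1, TSF and FT most.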
